A study of Mus musculus with 28 samples.

Results

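Neuroblasts of the aged mouse forebrain were set against Prom1+ stem cells of the same age and region. The comparison holds 7 single cells of C57BL/6 mice aged 24 months, 4 Dlx2+/Dcx+ cells and 3 Prom1+ cells, out of 22 single cells and 28 samples of the series. Members were chosen by the subpopulation and age in their names, and a gene was measured where FPKM (mapped fragments, scaled to the length of the transcript and the depth of the library) was above 1 in at least 3 of the 7 cells, which held for 6639 of 37974 genes. Cells came from the micro-dissected wall of the lateral ventricle, were dissociated with papain, gated by size and complexity in flow cytometry and picked by hand, and each cDNA was made with Smart-seq2, which reads whole transcripts without molecular identifiers. The mice carried no transgene or treatment that the labels name. The labels name no animal, so the 4 and the 3 cells may share animals, each group counts as 1 sample, and no test was made: values are given per cell, and a difference is that of the mean log2(FPKM + 1), Dlx2+/Dcx+ minus Prom1+. A gene was called separated where all cells of one group lay above all cells of the other and the difference exceeded 1. Cells aged 1 month, 5 Dlx2+/Dcx+ and 3 Prom1+, stand beside them as a comparator.

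In the subventricular zone, glia-like stem cells give rise to transit amplifying cells, which divide and become neuroblasts that migrate to the olfactory bulb and mature into interneurons, most of them GABAergic. Prom1 (CD133) is a membrane glycoprotein of apical and ciliary membranes that is found on ependymal cells and on a class of neural stem cells. Dlx2 is a homeodomain factor of the GABAergic lineage, and Dcx (doublecortin) is a microtubule-binding protein of migrating neuroblasts.

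Cells were picked for sequencing by PCR of their cDNA for *Prom1*, *Gfap*, *Dlx2* and *Dcx*. The groups were then clustered and named by the study on the sequenced transcriptomes themselves, with known signature genes, so every difference between them here describes groups that the same values helped to form, and marker levels are no independent check of the names. The oligos are shown because they chose which cells were sequenced. In GRCm38 the *Prom1* set lies on chromosome 5, minus strand, in the coding sequence of exons 18 to 20 of 25 (forward chr5:44012908-44012931, probe chr5:44011200-44011223, reverse chr5:44007066-44007085), and matched 10 of the 12 transcripts of GENCODE M21. The *Dlx2* set lies on chromosome 2, minus strand, in the coding sequence of exons 2 and 3 of 3 (forward chr2:71544924-71545400 across the intron, probe chr2:71544891-71544912, reverse chr2:71544868-71544886). The *Dcx* set lies on chromosome X, minus strand, in exons 6 and 7 of 7 (forward chrX:143870667-143870688, probe chrX:143870631-143870655, reverse chrX:143863545-143863565), and its reverse oligo reaches from the coding sequence into the untranslated region. Oligos are written 5′ to 3′, and the capital marks the 1 base beyond the exon junction.
Prom1 forward: tacagaatataagagccatccacc
Prom1 probe: ccctccagcaaacaagcaacaagt
Prom1 reverse: acagagtccaaagaggcaag
Dlx2 forward: gcctcacccaaactcagG
Dlx2 probe: ttccagaaccgccgatccaagt
Dlx2 reverse: gccgcttttccacatcttc
Dcx forward: cagtcagctctcaacacctaag
Dcx probe: tcctatctctacacccacaagccct
Dcx reverse: catctttcacatggaatcgcc

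The naming transcripts had these levels. *Prom1* was at 20.2, 56.6 and 1.49 FPKM in the Prom1+ cells and was listed at 0 in each Dlx2+/Dcx+ cell. *Dlx2* was at 649, 315, 1245 and 524 FPKM in the Dlx2+/Dcx+ cells and at 0.376, 1.27 and 1.74 in the Prom1+ cells. *Dcx* was at 153, 15.8, 267 and 152 FPKM against 0.0323, 0.362 and 0.0346. The third Prom1+ cell held the least *Prom1*, close to the limit of 1 FPKM and below its own value for *Dlx2*, and the second Dlx2+/Dcx+ cell the least *Dcx*. *Gfap*, an intermediate filament gene of astrocytes and stem cells, was listed at 0 in all 7 cells.

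Markers of other cell types varied from list to list. No member of the ependymal list and none of the endothelial and mural list was measured, and 13 of 15 members of each were listed at 0 in all 7 cells, among them *Foxj1* and *Tmem212* of ependymal cells and *Cldn5* of endothelium. An exact 0 can be a failed estimate in a file without fragment counts, so these zeros are listings and no proof of absence. The summed FPKM of the ependymal list was 0.360 to 21.7 in the Dlx2+/Dcx+ and 0.163 to 63.4 in the Prom1+ cells. It was highest in Dlx2+/Dcx+ cell 4 and Prom1+ cell 1, with 2 and 1 genes above 1 FPKM. That of the endothelial and mural list was 0 to 40.7 and 0 to 0.591. Of 15 microglial genes 1 was measured and not separated, and 11 were at 0 throughout. The summed FPKM of this list ran from 0.485 to 108 in the Dlx2+/Dcx+ and from 0.345 to 3.9 in the Prom1+ cells. Of 10 oligodendrocyte precursor genes 1 was measured and not separated, with a difference of 2.07, and *Pdgfra*, which defines these cells, was at 0 in all 7. The summed FPKM of this list was 41.2 to 121 in the Dlx2+/Dcx+ and 0.293 to 62.2 in the Prom1+ cells. Of its genes 1 was above 1 FPKM in each Dlx2+/Dcx+ cell and 0 to 3 in a Prom1+ cell. Of 15 oligodendrocyte genes 8 were measured and 5 to 9 were above 1 FPKM in each of the 7 cells, with 1, the galactosyltransferase *Ugt8a*, separated toward Prom1+ cells. After quantile normalization the myelin genes *Mbp* and *Mobp* were separated toward Dlx2+/Dcx+ cells. The summed FPKM of the oligodendrocyte list was 46.9 to 533 in the Dlx2+/Dcx+ and 72.3 to 112 in the Prom1+ cells. *Snap25*, a synaptic fusion protein of neurons, was the 1 measured gene of the 15 for mature neurons, at 0, 76.7, 2.47 and 117 FPKM against 0.175, 57.7 and 0.0651. The part of these genes in the results was not tested.

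The libraries differed in depth. The steps between low FPKM values, of which 87.9% to 93.7% per cell lay within 0.15 of a whole multiple of a step, put the Dlx2+/Dcx+ cells at 1.88e+06 to 2.47e+06 fragments and the Prom1+ cells at 3.04e+06 to 6.53e+06. Genes above 1 FPKM numbered 5081 to 5304 in the Dlx2+/Dcx+ cells and 5924 to 6626 in the Prom1+ cells, without overlap, and the mitochondrial genome took 18.1% to 19.1% and 13.5% to 31.7% of the summed FPKM. Pearson correlations of log2(FPKM + 1) over measured genes were 0.349 to 0.398 between Dlx2+/Dcx+ cells, 0.395 to 0.462 between Prom1+ cells and 0.304 to 0.349 across the groups. The part of depth in the counts below was not tested. The first Prom1+ cell, the deepest, stood apart in the immediate early genes given below.

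At 24 months 194 measured genes (2.92%) were separated with higher values in Dlx2+/Dcx+ cells and 420 (6.33%) with higher values in Prom1+ cells. The median difference over all measured genes was -0.32, with the higher mean in Dlx2+/Dcx+ cells for 2813 genes and in Prom1+ cells for 3826. After quantile normalization, which gives each cell the same distribution of values, that median was 0.10 and the counts were 419 and 348, of which 180 and 330 were among the first sets. The side with more separated genes thus turned with the scaling, and the counts of a gene group are given both ways where they differ. Of the separated genes, 68 had no Prom1+ cell and 188 no Dlx2+/Dcx+ cell above 1 FPKM. A gene silent in Prom1+ cells was measured through any 3 of 4 cells and one silent in Dlx2+/Dcx+ cells only through all 3, and such genes had to differ, so counts of measured genes are descriptions.

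Neuroblast genes were higher in the Dlx2+/Dcx+ cells of 24 months. Of 30 neuroblast identity genes 24 were measured, all 24 with the higher mean in Dlx2+/Dcx+ cells. Of these, 16 were separated that way (17 after quantile normalization) and 0 the other way, beside 2.92% and 6.33% of all genes. The median difference was 5.10, against -0.32 over all genes, and 21 to 26 of the 30 were above 1 FPKM in a Dlx2+/Dcx+ cell against 7 to 9 in a Prom1+ cell. *Dlx2*, *Dcx*, *Cd24a*, *Sp8* and *Sp9* belong to this list and were signature genes by which the study named the cluster, so the count is not independent of the naming.

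*Dlx1*, which shares a regulatory region with *Dlx2*, was at 1017, 663, 539.8 and 983 FPKM in the Dlx2+/Dcx+ cells and at 0.0893, 2.35 and 1.15 in the Prom1+ cells, a difference of 8.61. *Dlx5* was at 139.9, 166, 231 and 1.08 against 0, 0.234 and 0.272 FPKM. The fourth Dlx2+/Dcx+ cell was near 1 FPKM for *Dlx5*, although it held 983 FPKM of *Dlx1*. *Sp9*, a zinc finger factor of olfactory bulb interneurons, was at 417, 99.2, 229 and 103 FPKM against 0.264, 0.0607 and 0.212, a difference of 7.24. Its relative *Sp8* was at 139, 22.5, 379 and 0.564 against 0.199, 0.122 and 0.569 FPKM and was not separated, because the fourth cell lay among the Prom1+ cells. After quantile normalization *Sp8* was separated. *Igfbpl1*, a secreted relative of growth factor binding proteins, was at 64.3, 28.5, 182 and 91.4 FPKM against 0, 0.295 and 0.114, and *Dlx6* at 116, 20.3, 75.1 and 227 against 0.141, 0.651 and 0.151. Both were above every Prom1+ cell in all 4 Dlx2+/Dcx+ cells.

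Among 37 proneural and neurogenic transcription factors, 36 were analysed here and 25 measured. Of the 25, 8 were separated toward Dlx2+/Dcx+ cells (9 after quantile normalization) and 3 toward Prom1+ cells, beside 2.92% and 6.33% of all genes. Their median difference was 2.29. It was 1.25 without the filter on low values, 1.44 with the filter over all 22 cells and 0.51 over all 36. Among the 8 were *Dlx1*, *Dlx2*, *Dlx5*, *Dlx6*, *Sp9*, *Myt1* and *St18*. *St18*, a zinc finger relative of *Myt1*, was at 286, 42.5, 437 and 1469.8 FPKM against 0, 0.0485 and 0. The 3 toward Prom1+ cells included *Hes6* and *Lhx2*, which are described with the stem cell genes.

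Genes of the neuronal cytoskeleton and of migration also lay toward Dlx2+/Dcx+ cells. Of 35 listed genes 26 were measured. Of these, 10 were separated toward Dlx2+/Dcx+ cells (9 after quantile normalization) and 0 toward Prom1+ cells, beside 2.92% and 6.33% of all genes. The median difference was 1.93, and it was 1.13 without the filter on low values. *Map1b*, a microtubule-associated protein of growing axons, was at 562, 549.6, 2149.8 and 229 FPKM against 0.186, 0.539 and 0.653, a difference of 8.76. *Stmn4*, a tubulin-binding stathmin, was at 86.9, 325, 668 and 47.9 against 0.132, 0.544 and 0.277 FPKM. *Tubb3*, the neuronal beta-tubulin, was at 96.2, 207, 181 and 422 FPKM against 0.171, 27.5 and 0.183, and the second Prom1+ cell held more of it than the other Prom1+ cells. For the abundant *Stmn1*, *Tuba1a* and *Dpysl2* (a collapsin response mediator), the groups were closer. *Dpysl2* was at 3622, 2793, 5016 and 3728 FPKM against 835, 1185 and 1423, a difference of 1.73. *Stmn1* and *Tuba1a* had differences of 1.13 and 2.10 and were not separated after quantile normalization.

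Some GABA and RNA-binding genes were also higher in Dlx2+/Dcx+ cells. *Gad2*, which makes GABA from glutamate, was at 8.29, 95.9, 242 and 6.95 FPKM against 0.0513, 0.0473 and 0.588, a difference of 4.91. Its partner *Gad1* was at 266, 0.11, 79.1 and 0 against 0, 0 and 0.198, above 1 FPKM only in Dlx2+/Dcx+ cells 1 and 3. The GABA-B receptor subunit *Gabbr1* was at 18.1 to 155 FPKM in the 4 Dlx2+/Dcx+ cells against 0.037, 0 and 0, and at 1 month its difference was -0.67. Of 18 GABA genes 6 were measured and 2 separated, both toward Dlx2+/Dcx+ cells (3 after quantile normalization). Of all measured genes 2.92% were separated that way (419 of 6639 after quantile normalization). The GABA count is too small to read against that share, and the median difference over all 18 genes was 0.081. Of 19 genes for neuronal RNA-binding proteins 14 were measured and 4 separated toward Dlx2+/Dcx+ cells (*Elavl3*, *Celf2*, *Celf4* and *Srrm4*). The share of all genes was 2.92%, and the list's median was 0.14. *Elavl3*, which encodes HuC and stabilises neuronal messages, was at 25.6, 63.7, 60.8 and 127 FPKM against 7.18, 16.7 and 0.252. *Celf4*, a splicing and stability factor, was at 145, 40.7, 212 and 7.16 FPKM against 0, 0.0717 and 0.25.

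**Figure D1:**
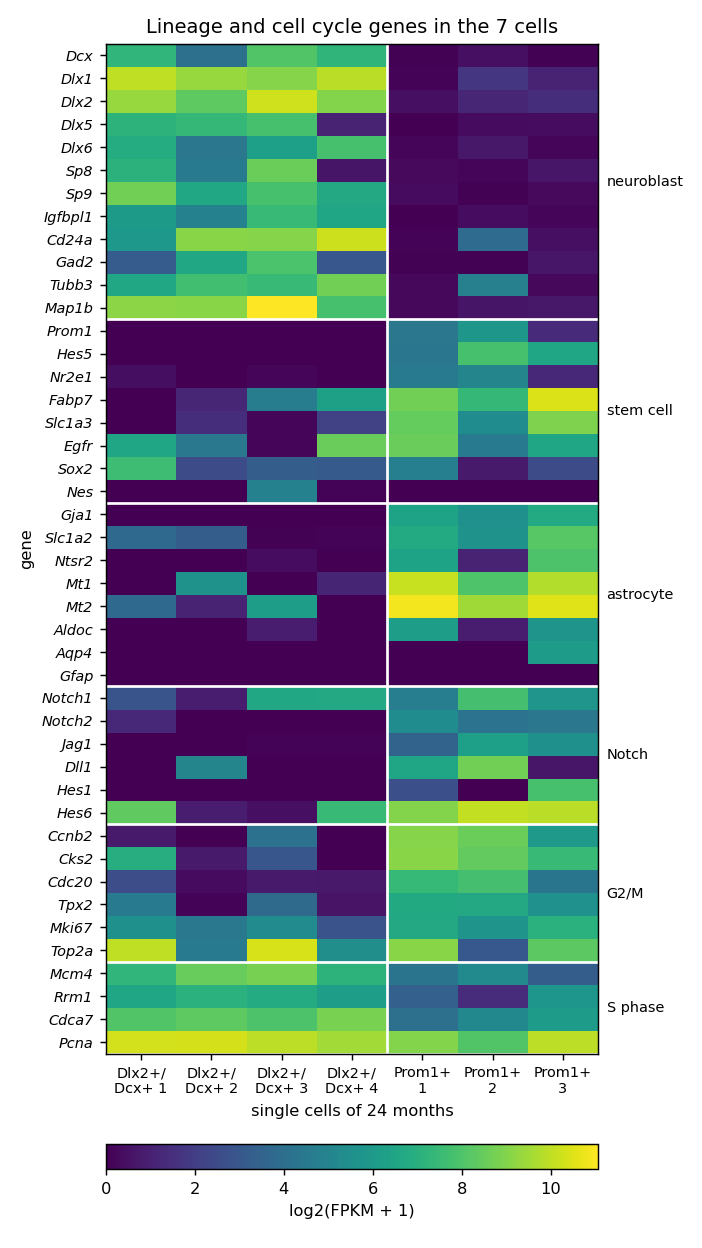
Values of log2(FPKM + 1), as colour, of 44 lineage and cell cycle genes (rows) in the 4 Dlx2+/Dcx+ and 3 Prom1+ cells of 24 months (columns), grouped by role. The 12 neuroblast genes are bright in the 4 left columns and dark in the 3 right ones, apart from *Dlx5* and *Sp8* in the fourth Dlx2+/Dcx+ cell and *Tubb3* and *Cd24a* in the second Prom1+ cell.

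By size, the 12 protein-coding genes with the largest differences toward Dlx2+/Dcx+ cells were *Actb*, *Nrep*, *Map1b*, *Dlx1*, *Tiam2*, *Dlx2*, *St18*, *Ets1*, *Sp9*, *Cd24a*, *Stmn4* and *Dusp1*. *Nrep*, a small protein of regenerating neurons, was at 1297, 529, 1672 and 1839.8 FPKM in Dlx2+/Dcx+ cells and at 0.364, 0.402 and 0.779 in Prom1+ cells, the largest difference after *Actb* (9.65). *Tiam2*, an exchange factor for the small GTPase Rac, was at 529.9, 442, 303 and 298 FPKM against 0.0953, 0.0879 and 0.102, a difference of 8.45. *Ets1*, an ETS transcription factor, was at 169.6, 138, 451 and 118 FPKM against 0, 0.057 and 0. All 4 neuroblasts lay over 100 FPKM for these 3 genes and all 3 Prom1+ cells under 1. *Cd24a*, a surface glycoprotein used to sort neuroblasts, was at 59.5, 548, 528 and 1212 FPKM against 0.0882, 13.8 and 0.378, and again the second Prom1+ cell stood above the other Prom1+ cells.

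*Actb*, which encodes beta-actin, was listed at 0 in each Prom1+ cell and was at 14267, 10899.8, 29739.5 and 19709.7 FPKM in the Dlx2+/Dcx+ cells. It was also at 0 in the 3 Prom1+ cells of 1 month and at 15216 to 21275 FPKM in the 5 Dlx2+/Dcx+ cells of that age. It was the 1 gene of the table at 0 in every cell of one group and above 100 FPKM in every cell of the other at both ages. Beta-actin is used by every cell, so here too only the listing is given. Of 27 housekeeping genes 24 were measured, and *Gapdh* (89.9, 73.1, 87.6 and 77.4 against 55.9, 31.1 and 31.5 FPKM) and the ferritin gene *Ftl1* were separated besides *Actb*, both toward Dlx2+/Dcx+ cells, with a list median of -0.11. *Ftl1* was not separated after quantile normalization.

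Several genes of active neural stem cells were higher in the Prom1+ cells of 24 months. Of 30 such genes 21 were measured. Of these, 8 were separated toward Prom1+ cells (7 after quantile normalization) and 0 toward Dlx2+/Dcx+ cells, beside 6.33% and 2.92% of all genes. The median difference was -2.89, against -1.87 without the filter on low values and -1.84 with the filter over all 22 cells. Of the 30, 16 to 24 were above 1 FPKM in a Prom1+ cell against 11 to 14 in a Dlx2+/Dcx+ cell. Without Prom1+ cell 1, 5 of 15 measured genes were separated toward Prom1+ cells and 1 toward Dlx2+/Dcx+ cells, beside 7.8% and 5.4% of all genes in that setting. The 8 included *Prom1*, *Hes5*, *Nr2e1* and *Slc1a3*, signature genes of the cluster like *Egfr*, and *Fabp7*, *Dbi* and *Ptprz1*. *Fabp7*, a brain lipid-binding protein, was at 425, 165 and 1445 FPKM in Prom1+ cells and at 0, 1.25, 24 and 77 in Dlx2+/Dcx+ cells. *Slc1a3*, the glial glutamate transporter GLAST, was at 348, 40.8 and 494 FPKM against 0, 1.69, 0.104 and 3.56, a difference of -6.65. The groups did not overlap for either gene, but Dlx2+/Dcx+ cells 3 and 4 held some *Fabp7*. *Nr2e1*, an orphan nuclear receptor of stem cell self-renewal, was at 23.2, 32.2 and 1.35 FPKM against 0.321, 0, 0.134 and 0. It was not separated after quantile normalization.

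Among other progenitor genes, *Egfr*, *Sox2* and *Nes* were not separated and *Lhx2* was. The receptor *Egfr* was at 374, 22.3 and 93.1 FPKM in the Prom1+ cells and at 93.5, 20.5, 0.124 and 368 in the Dlx2+/Dcx+ cells, so the fourth Dlx2+/Dcx+ cell was close to the highest Prom1+ cell. *Sox2*, a factor of neural progenitors, was at 26.7, 0.755 and 4.81 against 197, 5.04, 8.58 and 7.67 FPKM, with overlap. *Nes*, the intermediate filament nestin, was at 0, 0, 27.9 and 0.0698 FPKM in the Dlx2+/Dcx+ cells, and was listed at 0 for the Prom1+ cells, where as for *Actb* an exact 0 can be a failed estimate. *Lhx2*, a LIM homeodomain factor of cortical and glial progenitors, was at 304, 97.8 and 294 FPKM against 0, 40.6, 0.469 and 7.17.

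Astroglial genes stood higher in the same cells. Of 20 genes for astrocytes and quiescent stem cells 11 were measured, all 11 with the higher mean in Prom1+ cells. Of these, 7 were separated toward them (6 after quantile normalization) and 0 the other way, beside 6.33% and 2.92% of all genes. The median difference was -4.83. *Gja1*, the gap junction protein connexin 43, was at 84.4, 45.8 and 107 FPKM in Prom1+ cells and was listed at 0 in each Dlx2+/Dcx+ cell. *Slc1a2*, the glutamate transporter GLT-1, was at 108, 48.7 and 292 FPKM against 12.9, 8.47, 0.0383 and 0.0747, a difference of -5.07. The metallothioneins *Mt1* and *Mt2*, which bind zinc and copper, were among the highest. *Mt1* was at 1119.8, 256 and 877 FPKM against 0, 49, 0 and 1.2, and *Mt2* at 1879, 716 and 1467 against 12.6, 1.06, 72.6 and 0, with differences of -7.61 and -7.54.

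The 3 Prom1+ cells were not alike in this group. The mean log2(FPKM + 1) over its 20 genes was 4.62, 2.73 and 5.77 in Prom1+ cells 1, 2 and 3, and 1.73 to 1.91 in the Dlx2+/Dcx+ cells. *Ntsr2*, a neurotensin receptor of astrocytes, was at 85.5, 1.17 and 254 FPKM against 0, 0, 0.309 and 0, and *Aldoc*, the brain aldolase, at 72.9, 0.795 and 52.8 against 0, 0, 0.821 and 0. *Ntsr2* was separated, though not after quantile normalization, and *Aldoc* was not. *Aqp4*, the water channel of astrocyte endfeet, was at 0.029, 0 and 67.4 FPKM in the Prom1+ cells and at 0 in each Dlx2+/Dcx+ cell. The second Prom1+ cell was the lowest for *Ntsr2* and *Aldoc*, and it was the cell with *Tubb3*, *Cd24a* and *Snap25*. Without Prom1+ cell 1 or cell 3 the separated count was 4 of 8 measured, and without cell 2 it was 6 of 8, beside 7.8%, 8.72% and 8.71% of all genes. The list median without cell 1 and without cell 3 was -2.05 and -1.65. With 2 Prom1+ cells left, a gene silent in Dlx2+/Dcx+ cells cannot reach 3 cells above 1 FPKM, which lowers the measured number in all 3 settings.

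By size, the 12 genes with the largest differences toward Prom1+ cells were *Mfge8*, *Itgav*, *Mrpl2*, *Mt1*, *Pdpn*, *Mt2*, *Wrb*, *Kcne1l*, *Gstm1*, *Ggact*, *Slc1a3* and *Ddah1*. *Mfge8*, a secreted bridge between apoptotic cells and phagocytes that binds integrins, was at 909, 140.3 and 536 FPKM in Prom1+ cells and at 0, 0.207, 0.228 and 0.222 in Dlx2+/Dcx+ cells, a difference of -8.47. *Itgav*, the alpha V subunit of integrins that bind the *Mfge8* product, was at 466, 183 and 565 FPKM against 0.6, 0, 0 and 0, a difference of -8.34. Both were high in all 3 Prom1+ cells and under 1 FPKM in all 4 Dlx2+/Dcx+ cells. *Gstm1*, a glutathione transferase of astroglia, was at 195, 82.8 and 273 FPKM against 0, 0, 0.607 and 0.933. *Pdpn*, the mucin-like podoplanin, was at 196, 132 and 268 FPKM and listed at 0 in the 4 Dlx2+/Dcx+ cells. The groups did not overlap for either gene. *Mrpl2*, a protein of the mitochondrial ribosome, was at 93.1, 639 and 675 FPKM against 0, 0.475, 0 and 0.

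Of 30 adhesion and matrix genes 15 were measured. Of these, 5 were separated toward Prom1+ and 2 toward Dlx2+/Dcx+ cells, beside 6.33% and 2.92% of all genes. *Itgav*, its partner *Itgb1*, the phosphatase *Ptprz1* and the tetraspanins *Cd9* and *Cd63* were separated toward Prom1+ cells, and the cell adhesion molecule *Ncam1* and the proteoglycan *Ncan* toward Dlx2+/Dcx+ cells. After quantile normalization *Itgb1* and *Ncan* were not separated, the membrane glycoprotein *Gpm6b* was separated toward Prom1+ cells, and the counts were 5 toward Prom1+ and 1 toward Dlx2+/Dcx+ cells.

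Notch signalling passes between neighbouring cells: ligands of the Delta and Jagged families bind Notch receptors, and the cleaved receptor joins RBPJ to turn on *Hes* genes, which hold progenitors back from differentiation. Of 24 genes of the pathway 10 were measured, and 9 of the 10 had the higher mean in Prom1+ cells. Of the 10, 4 were separated toward Prom1+ cells and 0 toward Dlx2+/Dcx+ cells, beside 6.33% and 2.92% of all genes. The median difference was -3.57 over genes measured for the most part through the Prom1+ cells, and was -1.71 without the filter on low values and -1.83 with the filter over all 22 cells. In a Prom1+ cell 10 to 14 of the 24 were above 1 FPKM, in a Dlx2+/Dcx+ cell 2 to 5.

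The ligand *Jag1* was at 10.6, 74.9 and 46.5 FPKM in Prom1+ cells and at 0, 0, 0.0762 and 0.0743 in Dlx2+/Dcx+ cells. The ligand *Dll1* was at 92.1, 418 and 0.593 FPKM against 0, 32.2, 0 and 0 and was not separated. Of the receptors, *Notch2* was at 40.7, 17.4 and 19.9 FPKM against 1.33, 0, 0 and 0 and was separated, whereas *Notch1* (25.9, 219.9 and 52.9 against 6.3, 0.804, 97.6 and 101) overlapped. Thus *Notch2* and *Jag1* were higher in all 3 Prom1+ cells, while *Dll1* was high in cells 1 and 2 only and *Notch1* was shared with Dlx2+/Dcx+ cells 3 and 4. At 1 month 1 of 10 measured genes of the pathway was separated toward Prom1+ cells, with a median of -0.88. At both ages 0 genes of the pathway were separated that way.

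The target *Hes5* was at 19.3, 227 and 93.9 FPKM in the Prom1+ cells and listed at 0 in every Dlx2+/Dcx+ cell. The target *Hes1* was at 5.5, 0 and 228 FPKM and also at 0 in every Dlx2+/Dcx+ cell, and was too rare among the Prom1+ cells to be measured. *Hes6*, which opposes *Hes1* and promotes neuronal differentiation, was at 519, 1073 and 972 FPKM against 329.6, 0.82, 0.364 and 178: it was high in Dlx2+/Dcx+ cells 1 and 4 too. Without Prom1+ cell 1 or cell 2 the separated count of the pathway was 2 of 6 measured, and without cell 3 it was 3 of 8, beside 7.8%, 8.71% and 8.72% of all genes.

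The promoter of *Hes5* is shown because this Notch target was above 1 FPKM in all 3 Prom1+ cells and at 0 in all 4 Dlx2+/Dcx+ cells. It is the 250 bases before the RefSeq start on chromosome 4, plus strand, of GRCm38.p6 (chr4:154960673-154960922). The letters GTGGGAA, the core bound by RBPJ, were searched on both strands, and capitals mark the 2 matches, 226 to 220 bases (minus strand) and 83 to 77 bases (plus strand) before the start. Of 32851 promoter windows of the same length 5.42% held at least 1 match and 0.161% held 2 or more. A match is a description of the letters and no measure of binding.
Hes5 promoter: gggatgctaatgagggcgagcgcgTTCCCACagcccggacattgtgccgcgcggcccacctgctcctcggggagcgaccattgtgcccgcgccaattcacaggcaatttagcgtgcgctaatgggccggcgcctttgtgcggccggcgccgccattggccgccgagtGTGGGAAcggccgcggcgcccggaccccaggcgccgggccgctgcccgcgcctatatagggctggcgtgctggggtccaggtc

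Few genes of growth factor receptors and their cascade were separated. Of 29 genes 16 were measured, with 1 separated toward Dlx2+/Dcx+ cells and 2 toward Prom1+ cells, beside 2.92% and 6.33% of all genes. These counts are too small to read against the shares. The median was -0.62, against -0.054 without the filter on low values and 0.48 with FPKM above 10 in at least 3 of the 7 cells. The receptor *Fgfr2* was at 24.6, 2.42 and 71.8 FPKM in Prom1+ cells against 0, 0, 0 and 1.41 in Dlx2+/Dcx+ cells, and was not separated after quantile normalization. The list's counts were then 1 and 1. Of 26 Hedgehog and Wnt genes 8 were measured and 1 separated, the secreted Dickkopf relative *Dkk3*, at 40.2, 109.9 and 168 FPKM in Prom1+ cells against 0, 0, 0 and 0.127.

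All 7 cells expressed cell cycle genes. S phase genes encode replication proteins, and G2/M genes the mitotic kinases, spindle and kinetochore proteins. Of 54 G2/M genes 53 were measured, 11 were separated toward Prom1+ cells and 1, *Jpt1*, toward Dlx2+/Dcx+ cells (10 and 0 after quantile normalization), with a median difference of -1.92. Of 43 S phase genes 40 were measured, 3 were separated toward Dlx2+/Dcx+ cells and 1, the ubiquitin ligase *Ubr7*, toward Prom1+ cells, with a median difference of 1.06. The S phase counts are too small to read against the shares of all genes, 2.92% and 6.33%. The median of the S phase list was 0.40 without Prom1+ cell 2, and that of the G2/M list was -1.15 without Prom1+ cell 1.

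Within the Dlx2+/Dcx+ cells the G2/M genes fell into a pair of high and a pair of low cells. The mean log2(FPKM + 1) of the list was 5.83, 2.32, 4.75 and 2.13 in cells 1 to 4, and 48, 24, 44 and 26 of the 54 genes were above 1 FPKM. In the Prom1+ cells the mean was 6.34, 5.21 and 4.87, with 52, 45 and 45 genes above 1 FPKM. The S phase mean was 5.64, 4.93, 5.14 and 4.74 in the Dlx2+/Dcx+ cells and 3.87, 3.03 and 5.61 in the Prom1+ cells. Thus all 4 Dlx2+/Dcx+ cells were high in S phase genes, cells 2 and 4 were low in G2/M genes, and the third Prom1+ cell lay among the Dlx2+/Dcx+ cells on the S phase axis. Without that cell, 10 of 38 measured S phase genes were separated toward Dlx2+/Dcx+ cells, beside 348 of all measured genes (6.1%). The cell was picked out by its S phase values, so the rise is no result about the list. Without Prom1+ cell 1 the count was 4 of 37 and without cell 2 it was 3 of 38, beside 5.4% and 5.06% of all genes.

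Single genes showed both patterns. *Ccnb2*, a mitotic cyclin, was at 527, 387 and 60.3 FPKM in Prom1+ cells and at 0.739, 0, 16.6 and 0 in Dlx2+/Dcx+ cells, a difference of -6.63. *Cks2*, a subunit of cyclin-dependent kinases, was at 552, 344 and 177 FPKM against 118, 0.767, 6.76 and 0. *Cdc20*, the activator of the anaphase-promoting complex, was at 168, 225 and 19 FPKM against 5.09, 0.255, 0.725 and 0.709. For these 3 genes of mitosis every Dlx2+/Dcx+ cell lay below every Prom1+ cell, with *Cks2* in the first the nearest. *Top2a*, the topoisomerase that untangles chromosomes, was at 1043, 23.3, 1368 and 43.4 FPKM in the Dlx2+/Dcx+ and 551, 7.37 and 306 in the Prom1+ cells: it followed the high and low Dlx2+/Dcx+ cells and was not separated. *Mki67*, the proliferation marker Ki-67 and another signature gene of the Prom1+ cluster, was at 103, 52.4 and 135 FPKM in Prom1+ cells against 45.4, 20.4, 39.3 and 6.03.

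On the S phase side, *Mcm4*, a subunit of the replicative helicase, was at 156, 357, 441 and 142 FPKM in the Dlx2+/Dcx+ cells and at 18.2, 38.9 and 8.59 in the Prom1+ cells, a difference of 3.65. *Rrm1*, the large subunit of ribonucleotide reductase, was at 92.1, 132, 111 and 72.2 FPKM against 9.47, 1.66 and 55.3. *Cdca7*, a Myc target of S phase, was at 269, 316, 253 and 453 FPKM against 15.9, 34.8 and 69.3. The Dlx2+/Dcx+ cells thus lay above every Prom1+ cell for these 3 genes, whereas *Pcna*, the replication clamp, overlapped (1284, 1322, 992 and 748 against 511, 266 and 1007 FPKM). *Ccnd2*, the D cyclin of neural progenitors, was at 1276, 1374, 1128 and 2812 FPKM against 482, 388 and 32.9, a difference of 3.05, and was the 1 separated gene of 14 measured among 20 inhibitors and D cyclins. *Cdkn1b*, the inhibitor p27, was at 499, 455, 1030.4 and 414 against 314, 464 and 590.3 FPKM, with overlap.

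**Figure D2:**
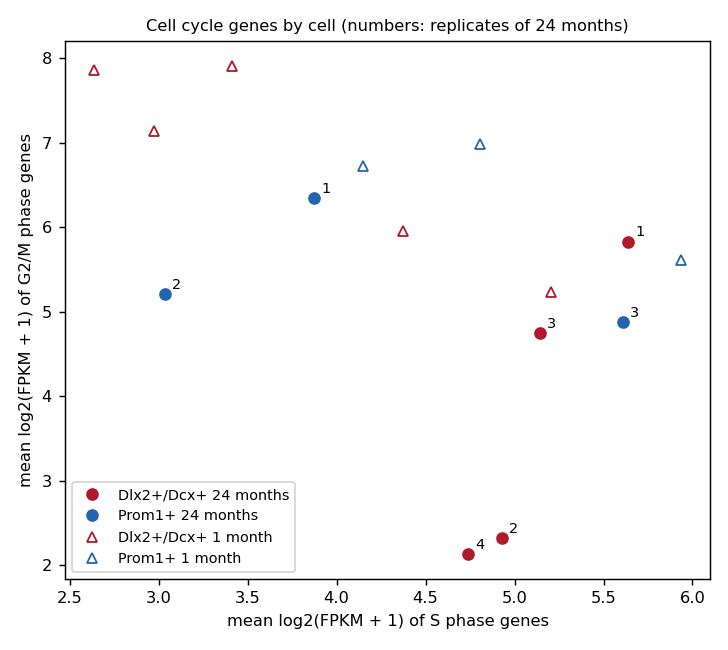
Mean log2(FPKM + 1) of the 43 S phase genes (horizontal) and of the 54 G2/M phase genes (vertical), 1 point per cell, for Dlx2+/Dcx+ and Prom1+ cells of 24 months (filled circles, numbered by cell) and 1 month (open triangles). Dlx2+/Dcx+ cells 2 and 4 of 24 months lie at 2.32 and 2.13 on the vertical axis, below all other cells.

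Immediate early genes, which respond to stress and dissociation within minutes, set 1 cell apart. Of 16 such genes 8 were measured, 1 was separated toward Dlx2+/Dcx+ cells, and the median difference was 1.96. *Fos* was at 0.597, 454 and 2523 FPKM in Prom1+ cells and 2353, 203, 134 and 1129 in Dlx2+/Dcx+ cells, and *Jun* at 0.162, 947 and 629 and 443, 255, 102 and 979. *Egr1* was at 0.552, 372 and 263 and 682, 124, 24.9 and 604 FPKM. For all 3 genes the first Prom1+ cell was under 1 FPKM and the other six cells were above 20. Without that cell the list median was -0.88, with the sign turned. *Dusp1*, a phosphatase of this group, was separated, at 296, 59.1, 153 and 1008 FPKM in Dlx2+/Dcx+ cells against 0.0795, 0.293 and 2.9.

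Metabolic and chromatin lists held 0 to 2 separated genes each, too few to read against the shares of all genes. Of 26 genes of sterol and fatty acid synthesis 19 were measured and 1 separated (*Msmo1*, toward Prom1+ cells, and not after quantile normalization). The median of that list was 0.11 after quantile normalization, on the other side of 0. Of 22 genes of fatty acid oxidation 10 were measured and 0 separated, and of 21 of glycolysis 11 were measured and 2 separated, *Gapdh* toward Dlx2+/Dcx+ cells and the mutase *Pgam1*, at 70.3, 71.3 and 7.85 FPKM against 3.34, 0.69, 0 and 0, toward Prom1+ cells. The list medians were -0.59, -1.44 and -1.65. With each cell left out in turn they ran from -1.10 to -0.12, from -1.64 to -0.092 and from -2.10 to -0.78. Among 20 genes of the BAF chromatin remodelling complex, 16 were measured and 2 separated. The ATPase *Smarca2* was at 91.7, 269 and 153 FPKM in Prom1+ cells against 9.28, 4.38, 0 and 0, and *Bcl11b*, a zinc finger subunit of neurons, at 4.37, 4.07, 0.156 and 38.7 FPKM in Dlx2+/Dcx+ cells against 0.0953, 0 and 0.0769.

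Of 22 genes for MHC class I and interferon response 2 were measured. *Ifi27*, an interferon-induced gene, was at 393, 497 and 441 FPKM in Prom1+ cells against 1.53, 3.73, 93.3 and 4.42 and was separated, and *B2m*, the light chain of MHC class I, was at 534, 171 and 0.464 against 0.753, 0, 0 and 0 and was not. The third Prom1+ cell was under 1 FPKM for *B2m* and close to the others for *Ifi27*. At 1 month the difference of *Ifi27* was 1.82. *Xist*, the 1 measured gene of 6 sex-linked ones, was above 10 FPKM in all 7 cells (34.2, 126, 60.5 and 31.1 against 33.1, 13.8 and 41.3).

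**Figure D3:**
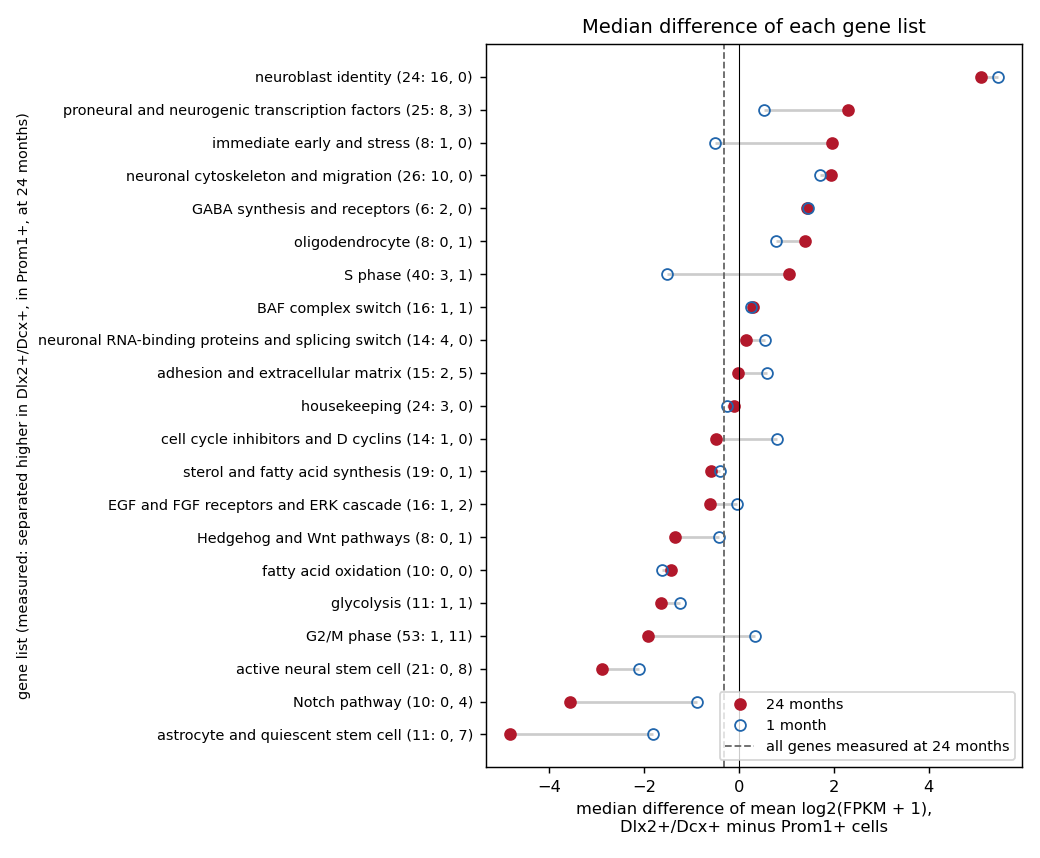
Median difference of mean log2(FPKM + 1), Dlx2+/Dcx+ minus Prom1+ cells, of the 21 gene lists with at least 5 measured members, at 24 months (filled) and 1 month (open); labels give the measured genes and those separated in each direction at 24 months, and the dashed line is the median of all genes at 24 months (-0.32). Neuroblast identity lies at 5.10 and 5.46, astrocyte and quiescent stem cell genes at -4.83 and -1.81, and the S phase and G2/M lists lie on opposite sides of 0 at both ages, exchanged between them.

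The same comparison at 1 month, in cells that share no library with those of 24 months, separated 142 of 7502 measured genes (1.89%) toward Dlx2+/Dcx+ cells and 187 (2.49%) toward Prom1+ cells. The groups there hold 5 and 3 cells, so that a gene has to clear more cells than at 24 months, and differences between the ages were not tested. Over the 6639 genes measured at 24 months the differences at the ages had a Pearson correlation of 0.213 across genes, which are not independent. Of the 194 genes separated toward Dlx2+/Dcx+ cells at 24 months, 30 (15.5%) were separated the same way at 1 month, which is 21.1% of the 142. Of the 420 toward Prom1+ cells, 23 (5.48%) were, which is 12.3% of the 187. The median difference at 1 month was 0.79 over the 194 and -0.53 over the 420.

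At 1 month 14 of 27 measured genes of the neuroblast list were separated toward Dlx2+/Dcx+ cells and 0 the other way, with a median of 5.46, and 12 of the 16 separated at 24 months were separated at both ages. Cells of both ages were named by the same signature genes, so this overlap is a description. *Dlx1* had a difference of 8.61 at 24 months and 8.77 at 1 month. *Mfge8* and *Itgav* were separated toward Prom1+ cells at both ages, with -8.47 and -8.13 for *Mfge8* and -8.34 and -4.78 for *Itgav*. *Ggact*, a gamma-glutamylamine cyclotransferase, was at 474, 4.81 and 548 FPKM in the Prom1+ cells of 24 months and at 48.7 to 1014 in those of 1 month.

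Astroglial genes had a median of -1.81 at 1 month, with 2 of 14 measured genes separated, and of -4.83 at 24 months. The latter rests on genes that were measured through the Prom1+ cells: it was -2.24 without the filter on low values, -2.44 with the filter over all 22 cells and -1.65 without Prom1+ cell 3. *Slc1a3* was at 63.3 to 321 FPKM in the Dlx2+/Dcx+ cells of 1 month, against 0 to 3.56 at 24 months, and its difference was 0.42 at 1 month. *Mt1* and *Mt2* had -1.55 and -3.77 at 1 month. In the Prom1+ cells, *Mt2* was at 22.8 to 936 FPKM at 1 month and 716 to 1879 at 24 months. *Gstm1* and *Mrpl2* had differences of 0.99 and 0.03 at 1 month, so that neither leaned toward the Prom1+ cells there.

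The medians of the cell cycle lists lay on exchanged sides of 0 at the ages, though the cell groups overlapped at 1 month. At 1 month the S phase list had a median of -1.52 and the G2/M list one of 0.34, against 1.06 and -1.92 at 24 months, while the median of all genes was -0.10 and -0.32. The G2/M mean was 5.24 to 7.91 in the 5 Dlx2+/Dcx+ cells of 1 month, and 2.13 to 5.83 in the 4 of 24 months. The S phase mean ran from 2.64 to 5.21 in the Dlx2+/Dcx+ cells of 1 month, with overlap with the 4.74 to 5.64 of 24 months. In the 3 Prom1+ cells of 1 month the G2/M mean was 5.61 to 6.99 and the S phase mean 4.15 to 5.94, overlapping the Dlx2+/Dcx+ cells. At 1 month 1 of 54 measured G2/M genes was separated toward Dlx2+/Dcx+ cells and 1 of 40 S phase genes toward Prom1+ cells. The shares of all genes there were 1.89% and 2.49%. *Cdc20* had the largest exchange of the G2/M genes named, at 206 to 640.3 FPKM in Dlx2+/Dcx+ cells of 1 month and 0.255 to 5.09 at 24 months, with 0.347 to 122 and 19 to 225 in the Prom1+ cells.

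The genes whose difference moved most between the ages were, of those higher in Dlx2+/Dcx+ cells at 24 months, *Chtf18*, *Chuk*, *Pask*, *Dusp1*, *Stx5a* and *Dcaf12*, and of those higher in Prom1+ cells, *Rabac1*, *Cdc20*, *Fxr1*, *Foxn2*, *Wdr33* and *Inip*. *Chtf18*, a loader of the replication clamp, was at 215, 30.3, 103 and 169.7 FPKM in Dlx2+/Dcx+ cells of 24 months against 0, 0.779 and 0, with a difference of 6.43 at 24 months and -3.22 at 1 month. *Pask*, a nutrient-sensing kinase, was at 273, 40.6, 323 and 241 FPKM against 0.0621, 0 and 29.9, with 5.76 and -2.22. *Fxr1*, an RNA-binding relative of the fragile X protein, was at 77.7, 40.6 and 154 FPKM in Prom1+ cells against 0.349, 0, 0 and 1.81, with -5.84 and 3.30. *Rabac1*, a Rab-binding protein of vesicle traffic, was at 81.3, 106 and 38.4 FPKM against 0, 19.2, 0 and 0, with -5.05 and 5.20. *Chuk*, a kinase of NF-kappa-B signalling, was at 13.6, 109, 147 and 857 FPKM in Dlx2+/Dcx+ cells against 1.55, 5.19 and 6.46, with 4.61 and -4.88. *Wdr33*, a factor of 3′ end processing, was at 103, 50.3 and 60.9 FPKM in Prom1+ cells against 0, 0, 0 and 0.067, with -6.09 and 2.69. In each of these 6 the sign at 1 month was the opposite of that at 24 months. Genes were ranked by the difference between the ages, which favours such a turn, so the turn is no separate result.

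**Figure D4:**
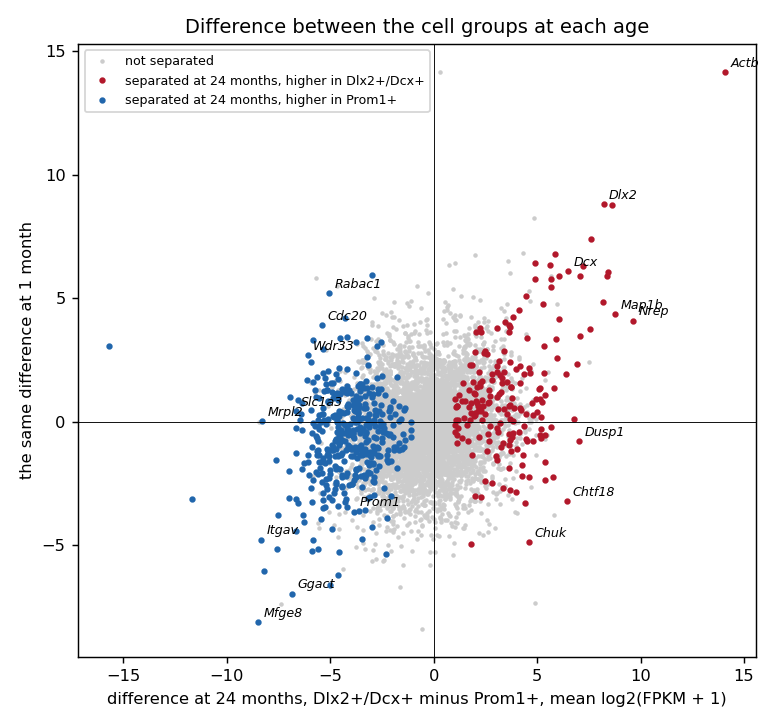
Difference of mean log2(FPKM + 1), Dlx2+/Dcx+ minus Prom1+ cells, at 24 months (horizontal) and 1 month (vertical) for the 6639 genes measured at 24 months, with separated genes coloured. *Dlx2* and *Actb* lie at the upper right and *Mfge8* at the lower left, whereas *Mrpl2*, *Rabac1* and *Chuk* do not keep their side (Pearson r 0.213 across genes).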

How the data were processed

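Single cells of the lateral ventricle wall were sequenced after Smart-seq2, and the authors deposited 1 table of FPKM per gene and cell. By the study's account, reads were aligned to GRCm38 with HISAT2 and expression was estimated with StringTie. Of the genes matched to the annotation, 12.8% had a listed position that overlapped the gene in GRCm38. The cause was not tested, and genes were matched by identifier. The submitters' processing notes also name featureCounts, and versions are not given in the sources used here. FPKM values are not counts, so no count test was made. Each sample is 1 cell and no animal is named, so no test was possible between groups. Means of log2(FPKM + 1) were compared between the 4 Dlx2+/Dcx+ and 3 Prom1+ cells of 24 months for genes above 1 FPKM in at least 3 of the 7 cells. A fold on this scale understates the change of low genes.

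The groups were clustered and named by the study on these transcriptomes, so no difference between them is independent of the grouping. Members and gene lists were chosen with earlier results of these data known. Genes were named by rule: the 4 marker genes, the list members, the 12 protein-coding genes per direction with the largest separated difference that were above 1 FPKM in every cell of the higher group, 6 per direction that moved most between the ages, and those at 0 in one group and above 100 FPKM in the other at both ages. Gene models came from GENCODE M21 (32929 identifiers matched), and promoters from RefSeq. Depth was estimated from FPKM steps of genes with 1 transcript of at least 1500 bases. No molecular identifiers were used and the numbers of cells, 4 and 3, limit the precision. Alternatives were another pseudocount, other filters, scalings and summaries, protein-coding genes alone and each cell left out in turn. Some list members are not reported here. The comparison was tested on simulated data. Python 3.11.15, numpy 2.4.6, pandas 2.3.3 and matplotlib 3.10.9 were used.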

Additional observations from a re-analysis of the deposited data

Results flagged for a closer look

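Among 127 values checked in the 4 Dlx2+/Dcx+ cells of 24 months, 18 had 1 cell far from the other 3 by Dixon's criterion, and chance flags about 1 in 20. Many lie at or near 1 FPKM, where the other cells were at or near 0. In cell 1 these were *Mfge8* (0 FPKM), *Itgav* (0.600), *Ddah1* (0.237), *Notch2* (1.33), *B2m* (0.753) and *Sox2* (197), and the mean log2(FPKM + 1) of the proneural and neurogenic transcription factors (3.97). In cell 2 they were *Mrpl2* (0.475 FPKM), *Dll1* (32.2), *Pask* (40.6) and *Rabac1* (19.2). In cell 3 they were *Nes* (27.9 FPKM), *Ntsr2* (0.309) and *Aldoc* (0.821). In cell 4 they were *Dlx5* (1.08 FPKM), *Fgfr2* (1.41), *Dkk3* (0.127) and *Wdr33* (0.0670).

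For 9 genes the cells were separated one way at 24 months and the opposite way at 1 month, and the difference between the ages was not tested. *Chuk*, a kinase of NF-kappa-B signalling, had a difference of 4.61 at 24 months and -4.88 at 1 month, and *Ddx6*, an RNA helicase, 2.30 and -3.07. The other 7 lay toward Prom1+ cells at 24 months and toward Dlx2+/Dcx+ cells at 1 month. They were *Wdr33* (-6.09 and 2.69), *Cdc20* (-5.39 and 3.91), *Inip* (-4.29 and 4.22), *Dnajc19* (-3.76 and 1.97), *Foxn2* (-2.97 and 5.94), *Thra* (-2.74 and 3.08) and *Ptpn11* (-2.56 and 3.22). After quantile normalization *Foxn2* and *Dnajc19* were not separated at 24 months.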

How the results depend on the processing

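The count toward Dlx2+/Dcx+ cells moved most with quantile normalization, and that toward Prom1+ cells with the filter (597 without one, 577 over all 22 cells) and with the cells left in, where fewer cells make the call easier. Leaving out a Dlx2+/Dcx+ cell kept 168 to 172 of the 194 genes and 418 to 420 of the 420, and leaving out a Prom1+ cell kept 185 to 191 and 231 to 232, since a gene seen in Prom1+ cells alone then fails the filter. With FPKM above 1 in at least 3 of all 22 cells, the median differences were -1.84 (active neural stem cell), -2.44 (astrocyte), 0.35 (oligodendrocyte), -1.83 (Notch), 0.59 (RNA-binding proteins) and 1.44 (proneural factors). With FPKM above 10 in at least 3 of the 7 cells, chosen after seeing the data, 240 genes were separated toward Prom1+ cells and the medians were -2.89 (astrocyte), 0.48 (EGF and FGF), 0.59 (RNA-binding proteins), 4.07 (proneural factors), 0.28 (sterol) and -0.65 (fatty acid oxidation). With medians over cells they were 5.85 (neuroblast identity), -4.95 (Notch), 2.48 (GABA), 0.77 (RNA-binding proteins) and 0.56 (adhesion). Without a filter on low values they were -1.87 (active neural stem cell), -2.24 (astrocyte), 0.15 (oligodendrocyte), -1.71 (Notch), -0.054 (EGF and FGF), 1.13 (cytoskeleton), 0.38 (GABA), 0.48 (RNA-binding proteins) and 1.25 (proneural factors). With a pseudocount of 0.1 they were 7.19 (neuroblast identity), -3.29 (active neural stem cell), -6.49 (astrocyte), -5.69 (Notch), -2.12 (Hedgehog and Wnt), 3.13 (GABA), 3.11 (proneural factors) and -1.34 (sterol). After quantile normalization 419 genes were separated toward Dlx2+/Dcx+ cells, the median of all genes was 0.10, and list medians were 2.16 (oligodendrocyte), 0.82 (RNA-binding proteins), 0.93 (BAF) and 0.11 (sterol). With each cell left out in turn, 291 to 348 genes were separated toward Dlx2+/Dcx+ cells and 442 to 597 toward Prom1+ cells, and the medians ran from 5.06 to 5.97 (neuroblast identity), from -3.37 to -2.34 (active neural stem cell), from -4.79 to -1.65 (astrocyte), from 0.78 to 1.47 (oligodendrocyte), from -0.88 to 3.42 (immediate early), from -3.86 to -2.05 (Notch), from -1.20 to -0.34 (EGF and FGF), from -2.63 to -0.75 (Hedgehog and Wnt), from 0.61 to 2.83 (GABA), from -0.21 to 0.48 (RNA-binding proteins), from -0.57 to 0.78 (BAF), from 1.53 to 3.40 (proneural factors), from -1.64 to -0.092 (fatty acid oxidation), from -2.10 to -0.78 (glycolysis), from -0.74 to 0.64 (adhesion), from -0.21 to 0.34 (housekeeping), from 0.40 to 1.37 (S phase) and from -2.68 to -1.15 (G2/M phase). Counts of list members separated toward Dlx2+/Dcx+ and Prom1+ cells moved without 1 cell, as did the shares of all genes, so the moves are no result about a list. Without Dlx2+/Dcx+ cell 1 they were 5 and 2 of 38 (S phase), 4 and 0 of 6 (GABA), 2 and 1 of 8 (oligodendrocyte) and 1 and 15 of 49 (G2/M), beside 4.99% and 9.92% of all genes. Without Dlx2+/Dcx+ cell 3 they were 3 and 2 of 24 (housekeeping), beside 4.81% and 9.18% of all genes. Without Prom1+ cell 1 they were 1 and 4 of 14 (EGF and FGF), beside 5.4% and 7.8% of all genes. Without Prom1+ cell 2 they were 2 and 0 of 7 (oligodendrocyte) and 0 and 3 of 10 (glycolysis), beside 5.06% and 8.71% of all genes. Without Prom1+ cell 3 they were 3 and 3 of 16 (EGF and FGF), 4 and 2 of 13 (RNA-binding proteins), 3 and 1 of 15 (BAF), 0 and 3 of 16 (sterol) and 1 and 0 of 24 (housekeeping), beside 6.1% and 8.72% of all genes. The medians of the neuroblast, active stem cell, astrocyte, Notch, cytoskeleton, S phase and G2/M lists kept their side of 0 under every alternative run. The immediate early list turned without Prom1+ cell 1. For the other values named here the cause was not tested. No paired analysis was possible because no test was made and the labels tie no cell to an animal. The number of cells, the absence of named animals and the unequal depth limit what the differences show.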
